A study of Homo sapiens with 8 samples.

Results

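The values described here are the changes in transcript level after RNA polymerase II had been blocked in SW480 cells carrying a control shRNA. SW480 is an established human colorectal adenocarcinoma line, although the design text of the series calls the cells breast cancer cells. All cells were stably transduced with an shRNA, here the control and in the comparison table an shRNA against the RNA-binding protein RBMS1. Cells either received no agent (0 h) or were given alpha-amanitin at 10 µg/mL for 9 h. Total RNA was treated with DNase, depleted of ribosomal RNA with Ribo-Zero Gold, made into ScriptSeq v2 libraries and sequenced on a HiSeq instrument. The control groups held 2 libraries at each time, 4 of the 8 libraries of the series, and the labels do not say whether replicate libraries are separate cultures. Every row of the authors' table for the control shRNA was taken, which gave 21328 of the 22468 RefSeq transcripts listed in either of the tables for the 2 shRNAs. Of these, 18822 were coding and 2506 non-coding, and 115 could not be paired with a gene symbol.

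Alpha-amanitin, a toxin of death cap mushrooms, binds RNA polymerase II and stops the making of mRNA, while RNA polymerase I is resistant and RNA polymerase III needs far more of the toxin. With no new mRNA made, what remains of a transcript after a time of block depends on how fast it is degraded. Most mRNAs lose their poly(A) tail, are decapped and are then digested from the 5′ end, or are degraded from the 3′ end by the exosome. Elements in the 3′ untranslated region (3′UTR), bound by proteins such as the Pumilio and AU-rich element binding families, are known to speed these steps for particular mRNAs.

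Each transcript has 1 value, the authors' log2 fold change of 9 h over 0 h, in which the libraries are already combined. A value of −1 stands for 50.0% of the 0 h level and −2 for 25%, both relative to the rest of the library, since the total RNA per cell is not known. Neither the log base nor the direction is in the header: the base is the one written by Cuffdiff, and the direction was read from the table's name and from MYC, FOS and JUN, short-lived mRNAs whose values are negative. Read depth and the spread between libraries are unknown, so no value could be set against replicate error, no test was possible, and values are counted past a size of 1 in each direction. Transcripts were left out of the table upstream by a rule not given in the sources used here, so a gene that is not listed is not thereby silent. Control values of coding transcripts ran from −9.98 to 9.99, and no listed control value reached a size of 10. Whether transcripts with larger changes were left out is not known. Of the genes that mark colon epithelium, 14 of 21 were listed, among them CDX2, VIL1, KRT20 and HNF4A, and those not listed included LGALS4, CDH17, GPA33, CEACAM5, CEACAM6 and CDX1. Of the breast epithelial markers 4 of 15 were listed, KRT5, KRT15 and MUCL1 among them, and of the markers of other cell types 3 of 18 (CD68, LYZ and ACTA2).

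The control mRNAs for the direction lay well below the middle of the table. Their side of 0 is not an independent result, since the direction was read in part from them. The authors' deposited table placed MYC, a transcription factor of cell growth, at −1.44, which is 36.8% of its 0 h level. FOS and JUN, the partners of the AP-1 factor, were at −1.61 and −1.01 in the authors' deposited table. The housekeeping mRNA ACTB was at −0.02 and the 4 listed transcripts of GAPDH averaged 0.33 in the authors' deposited table. POLR2A, the large subunit of the blocked polymerase, was at −0.63 in control cells and at 1.01 in the table for the RBMS1 shRNA, so its mRNA lay on opposite sides of 0 in the authors' deposited tables. Of the abundant nuclear RNAs, MALAT1 was at −0.20 and NEAT1, the scaffold of paraspeckles, at −0.66 in the authors' deposited table of control cells.

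Most transcripts stayed close to the middle of the library. Coding transcripts had a median of −0.06 (quartiles −0.60 and 0.35), and 14803 of 18822, or 78.6%, lay between −1 and 1. At −1 or below were 2618 coding transcripts (13.9%), 758 of them at −2 or below, and at 1 or above were 1401 (7.44%), 499 of them at 2 or above. Non-coding transcripts were placed higher, with a median of 0.14 (quartiles −0.46 and 0.61), 324 at −1 or below and 374 at 1 or above. For genes, the mean over the listed coding transcripts was taken, and for genes with no listed coding transcript the mean over the non-coding ones. Where a gene with several listed transcripts is given 1 value, it is this mean, computed here from the authors' transcript values. The 11722 coding genes had a median of −0.09 (quartiles −0.54 and 0.28), and 6531 of them (55.7%) lay below 0. Of these genes 1291, or 11.0%, were at −1 or below and 443, or 3.78%, at 1 or above. The 1370 non-coding genes had a median of 0.20 (quartiles −0.30 and 0.60), with 105 (7.66%) at −1 or below and 183 (13.4%) at 1 or above. These 4 shares are the background for the counts that follow. In the table for the RBMS1 shRNA, 9.87% of coding and 7.34% of non-coding genes were at −1 or below. Of the coding transcripts at −1 or below in the control and listed in both tables, 47.4% were at −1 or below there too. Such a share was not computed over gene means, so the counts of repeated low genes in the lists below have no matched background.

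**Figure D1:**
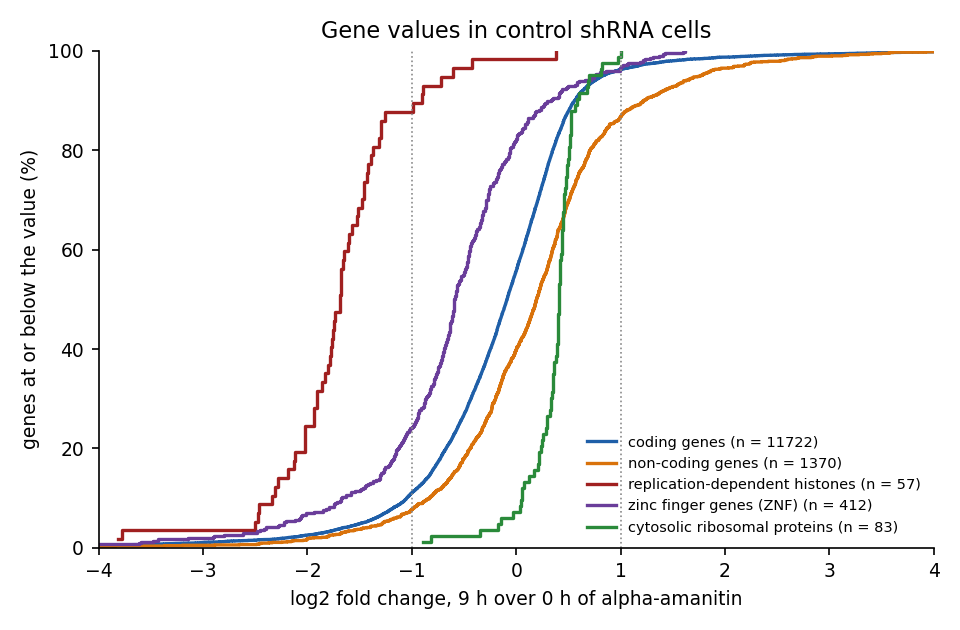
Share of genes (%) at or below each control log2 fold change of 9 h over 0 h of alpha-amanitin, drawn from −4 to 4 for all coding genes, all non-coding genes, histones, ZNF genes and cytosolic ribosomal proteins, with dotted lines at −1 and 1. At −1 the curves stand at 11.0% for coding and 7.66% for non-coding genes, with the histones to the left of both and the ribosomal proteins steep at a median of 0.41.

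Replication-dependent histone mRNAs were the lowest of the gene lists described. They encode the core and linker histones made in S phase and end in a stem-loop in place of a poly(A) tail, and their loss is known to be coupled to the state of DNA synthesis. Of 57 listed genes 50 lay at −1 or below, the median was −1.69 and the quartiles were −1.94 and −1.43. In the table for the RBMS1 shRNA the median was −1.67, and all 50 lay at −1 or below there too. The linker histone H1-3 was lowest, at −3.81 in the control and −3.78 in the other of the authors' deposited tables. H1-6, the testis linker histone, followed at −3.77 and the core histone H3C12 at −2.50 in the authors' deposited table of control cells. The highest members were H2AC25 at −0.61, H2BC5 at −0.42 over 2 transcripts and H3C6 at 0.38 in the authors' deposited table. Histone genes of a type are near-identical copies, so reads may have been split among them, and single values are uncertain.

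The stem-loop was looked for as 6 paired bases that begin with GG around a loop of 4 bases, in 3′UTRs of GENCODE release 29. Of the 58 listed histone transcripts 29 had an annotated 3′UTR and 24 of these held the stem-loop, its stem starting 22 to 56 bases after the stop codon (median 34). The loop was TTTC in 18, TTTA in 4, TTTT in 1 and TCTC in 1. Among the 11398 other coding genes, 416 (3.65%) held such a stem-loop anywhere in the 3′UTR. The 24 transcripts had a median of −1.60 and 20 of them lay at −1 or below. The sequences shown cover this range from low to high, 5′ to 3′ on GRCh38, with the stem and loop in capitals.
H3C8 (chr6:26270918-26270943, minus strand): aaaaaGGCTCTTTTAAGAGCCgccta
H4C2 (chr6:26026896-26026921, minus strand): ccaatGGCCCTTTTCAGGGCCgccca
H2BC18 (chr1:149811880-149811905, minus strand): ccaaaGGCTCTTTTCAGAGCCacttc
H2AC8 (chr6:26217412-26217437, plus strand): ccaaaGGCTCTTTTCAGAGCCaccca
H2BC5 (chr6:26158582-26158607, plus strand): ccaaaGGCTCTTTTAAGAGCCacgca
H4C16 (chr12:14770719-14770744, minus strand): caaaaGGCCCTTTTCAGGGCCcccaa
H2AC25 (chr1:228457364-228457389, minus strand): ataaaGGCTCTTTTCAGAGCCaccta
H3C6 (chr6:26225591-26225616, plus strand): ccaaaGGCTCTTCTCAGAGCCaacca

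The stem-loop letters did not follow the order of the values. In the authors' deposited table H3C8 was at −2.48, H4C2 at −2.31, H2BC18 at −2.13 and H2AC8 at −1.52, against −0.72 for H4C16 and −0.61 for H2AC25. H2BC18, H2AC8 and H2AC25 share the same 16 bases of stem and loop, and their values spanned −2.13 to −0.61 in the authors' deposited table. H3C6, the highest histone and the only one with the loop TCTC, was at 0.38 in the control and −0.22 in the other of the authors' deposited tables. H2BC5 is the histone gene with 2 listed transcripts. Its transcript of 1 exon, with a 3′UTR of 91 bases and the stem-loop, was at −1.59 in the control and −1.51 in the other of the authors' deposited tables. Its transcript of 2 exons, with a 3′UTR of 384 bases and without such a stem-loop, was at 0.75 in the control and 0.70 in the other of the authors' deposited tables. The remaining transcripts with a 3′UTR but no match were H1-6 at −3.77, H1-4 at −2.03, H4C3 at −1.68 and H2AC11 at −1.65 in the authors' deposited table.

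Regulators whose mRNAs are known for short lives came next. The immediate early transcription factors, induced within minutes of a stimulus, had a median of −0.89 over 30 listed of 36, and 15 lay at −1 or below against a background of 11.0%. Since the direction of the table was read from MYC, FOS and JUN, the side of this list is not an independent result. KLF2, a zinc-finger factor, was at −2.93, CEBPD, a leucine-zipper factor, at −2.19 and IER3 at −1.73 in the authors' deposited table. At the other end MAFG, a small partner of the bZIP factors, was at 1.58 over 2 transcripts in the authors' deposited table. In the table for the RBMS1 shRNA 10 of the 15 low members were again at −1 or below, and the list's median was −0.75.

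Feedback inhibitors of the MAP kinase pathway, the DUSP phosphatases and the Sprouty and SPRED proteins, held 14 listed genes at a median of −0.83, 6 of them at −1 or below. SPRY1 was at −3.43 and DUSP6, the ERK phosphatase, at −2.08 in the authors' deposited table. SPRED2 averaged −2.09 over transcripts at −3.36 and −0.82 there. The Wnt feedback and intestinal stem cell genes held 20 at a median of −1.15, with 11 at −1 or below and 9 of the 11 there again in the other table. BAMBI, a decoy receptor of TGF-beta signalling, was at −2.77, the homeobox factor MSX1 at −2.15 and AXIN2, a scaffold of the beta-catenin destruction complex, at −1.89 in the authors' deposited table. EPHB2, the ephrin receptor of crypt cells, lay at 0.46, NOTUM, a Wnt deacylase, at −0.02 and RGMB, a BMP co-receptor, at −0.31 in the authors' deposited table, so the list did not lie on 1 side throughout. Among the helix-loop-helix repressors of the ID, HES and HEY families, HEY2 was at −1.81 and ID2 at −1.31, while ID1 was at 0.02 in the authors' deposited table; the median over 6 was −0.53.

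The clock genes had a median of −1.0 over 15, with 7 at −1 or below, and a median of −0.34 in the table for the RBMS1 shRNA. Of the 6 low genes listed there 5 were at −1 or below again. PER3, a period repressor, was at −9.44 in the control and absent from the other of the authors' deposited tables. Both of the authors' deposited tables had TEF, a PAR bZIP factor, low (−1.73 and −1.50) and the repressor CRY1 at 0.53. The unfolded protein and integrated stress response held 21 genes at a median of −0.85, 9 of them at −1 or below. Its lowest members were the pseudokinase TRIB3, the mTORC1 inhibitor DDIT4 at −2.21 and the transcription factor DDIT3 (CHOP) in the authors' deposited table. TRIB3 averaged −2.33 over transcripts at −1.60, −1.62 and −3.77, the last absent from the other table. DDIT3 averaged −1.97 over transcripts at −2.55 and −1.39. Of the 21 genes 4 lay above 0, among them PDIA4 at 0.43 and SDF2L1 at 0.49 in the authors' deposited table. Over the 13 members with a single listed transcript the median of this list was −0.21.

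Other regulators were closer to the background. The p53 targets held 21 genes at a median of −0.42, 4 of them at −1 or below, among them SESN2 at −1.72 and GDF15, a secreted stress factor, at −1.67 in the authors' deposited table. BBC3 (PUMA), which promotes cell death, averaged −2.44 over 3 transcripts that ran from −8.67 to 2.39 in the authors' deposited table. The BCL2 family had a median of −0.04 over 12 (0.14 without the outer 1% of transcript values). The G1 cyclins and CDK inhibitors had a median of −0.06 over 15 (0.12 with the transcript of smallest change), with 0 past a size of 1 on either side. The NF-κB inhibitors and cytokines had a median of 0.06 over 11 with 0 at −1 or below, and this median moved to −0.68 over the 8 members with a single listed transcript. TXNIP, an inhibitor of glucose uptake, was at −1.28 in the control and −1.37 in the other of the authors' deposited tables.

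Of the lists of chromatin and transcription, the ZNF, homeobox, ZBTB and lysine-modifying genes held more low genes than the background of 11.0%, while Mediator with the general factors and the polymerase did not. Of 412 genes named ZNF, mostly zinc-finger transcription factors, 99 (24.0%) lay at −1 or below and 14 at 1 or above, around a median of −0.59; of the 98 low genes listed in the other table, 59 lay at −1 or below there. The homeobox genes had a median of −0.57 over 59 with 16 low, and the ZBTB factors −0.35 over 37 with 10 low. HOXC13 was at −2.63 and HOXB4 at 1.35 (1.31 in the other table) among the homeobox genes of the authors' deposited tables. Among the ZBTB factors, ZBTB22 averaged −4.87 (−6.05) over transcripts at −1.07 and −8.67 (−2.21 and −9.89). The enzymes that methylate, acetylate or demethylate lysines of histones had a median of −0.69 over 46, with 17 at −1 or below. The H3K27 demethylase KDM6B was at −2.19, the acetyltransferase KAT5 at a mean of −1.91 over its transcripts and KAT6B at −1.85 in the authors' deposited table. This list stood closer to the background in the table for the RBMS1 shRNA, with a median of −0.36 and 6 of the 15 low genes listed there at −1 or below. Mediator and the general transcription factors had a median of −0.22 over 65 with 5 (7.69%) low. Of these, MED11 averaged −1.92 over transcripts at −0.43 and −3.40 in the authors' deposited table. The 12 subunits of RNA polymerase II had a median of 0.40 and 10 of them lay above 0, POLR2A and POLR2H being the exceptions.

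The RNA processing and decay machinery mostly lay near the middle of all genes. The SR splicing factors had a median of 0.01 over 13 (−0.14 with the median over each gene's transcripts) with 1 at −1 or below, SRSF3, at −1.01 in the authors' deposited table and −0.98 in that for the RBMS1 shRNA. The hnRNP proteins had a median of −0.13 over 27 with 3 low, and HNRNPD (AUF1), which binds AU-rich elements, averaged −1.34 over 4 transcripts in the control and 0.19 in the other of the authors' deposited tables. The 15 AU-rich element binding proteins had a median of −0.42 with 4 low. In the table for the RBMS1 shRNA their median was −0.16, and 1 of the 4 was at −1 or below. The lowest was ZFP36L2, which recruits deadenylases, at −1.97 in the control and −0.50 in the other of the authors' deposited tables. Of 36 deadenylation, decapping and 5′ decay factors 3 were at −1 or below and 5 at 1 or above. The deadenylase CNOT6L averaged −1.84 (−1.88 in the other table) over 2 transcripts, at −2.49 and −1.20 in the control. BTG1, which recruits the CCR4-NOT complex, was at −1.09 (−1.72). The decapping enzyme DCP2 averaged 4.37 (4.31) and the poly(A)-specific ribonuclease PARN 2.84 (2.08) in the authors' deposited tables. Of 23 factors of the exosome and of nonsense-mediated decay 3 were low, among them SMG9 at −1.50 in the authors' deposited table. LSM4, a subunit of the LSM ring that binds RNA ends before decapping, had 2 transcripts in the control. The first was at −9.08 and is not listed for the RBMS1 shRNA, while the other was at 0.43 against 0.33 there in the authors' deposited tables.

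The lists of protein synthesis, respiration, glycolysis and protein turnover had medians above the −0.09 of all coding genes. Cytosolic ribosomal proteins had a median of 0.41 (quartiles 0.30 and 0.48), 77 of 83 above 0 and 0 at −1 or below. RPL7 was at 1.00 in the authors' deposited table. RPS20 averaged 0.98 over transcripts at 0.39 and 1.57, and RPL28 averaged −0.89 over 4 transcripts. Ribosomal protein mRNAs have many processed copies in the genome, so single values are uncertain. The 37 genes of respiratory complex I had a median of 0.47 and complexes II to V a median of 0.44 over 44, again with 0 at −1 or below. NDUFC1, a small subunit of complex I, averaged 2.44 over 4 transcripts in the control and 0.32 in the other of the authors' deposited tables, through 1 transcript at 9.09 and −0.52. The glycolytic enzymes had a median of 0.38 over 19, the proteasome 0.27 over 46 and the mitochondrial ribosome 0.23 over 77, while all 8 subunits of the CCT chaperonin lay above 0 with a median of 0.31. The translation factors lay lower, at 0.18 over 64, and the aminoacyl-tRNA synthetases, which charge tRNAs, at 0.07 over 34. These positions are relative: with the ribosomal protein median set to 0, every value shifts by −0.41, 21 list medians change sign and 4 of the 26 lists with a median above 0 are still above it.

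The cytoskeleton and membrane traffic were more mixed. Of 17 actin, tropomyosin, transgelin, calponin, cofilin and profilin genes 6 lay at 1 or above, against a background of 3.78%, and the median was 0.49. TAGLN (transgelin), an actin-bundling protein, was at 2.70 (1.93 in the other table) and TPM3 averaged 2.65 (−0.15) over 3 transcripts in the authors' deposited tables, 1 of them at 8.80 (−1.58). Tubulins had a median of 0.15 over 21, with 3 low. The lysosomal proteins had a median of 0.34 over 33 and the RAB GTPases, switches of vesicle traffic, a median of −0.10 over 48 with 7 low. The cholesterol synthesis genes had a median of −0.14 over 25, which turned to 0.12 with the median over each gene's transcripts and to 0.14 over the 15 genes with 1 listed transcript. At −1 or below was 1 of them, MVK (mevalonate kinase) at −1.79 in the authors' deposited table.

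The mitosis and DNA replication lists lay at different levels. The mitosis and G2/M genes had a median of −0.43 over 38 with 9 at −1 or below, and 6 of these 9 were there again in the other table. TTK, the spindle checkpoint kinase, was at −1.72, the kinesin KIF23 at −1.45 and the centromeric histone CENPA at −1.41 in the authors' deposited table, as means over 2 transcripts each. HMMR and NEK2 had means above 1 that rested mainly on 1 transcript: HMMR had transcripts at 7.81, −0.14, −0.37 and −1.03, and the centrosomal kinase NEK2 at 3.75, 0.83 and −0.27, in the authors' deposited table. The DNA replication genes had a median of 0.04 over 45, with 2 at −1 or below. Those were ORC1, a subunit of the origin recognition complex, and RPA2, a subunit of the single-strand DNA binding protein, each low through 1 of its 2 transcripts. The low transcripts, at −8.48 for ORC1 and −4.71 for RPA2, are not listed in the other of the authors' deposited tables, and the ones listed in both were at 0.02 against 0.16 and at 0.52 against 0.30. Heat shock proteins had a median of 0.13 over 57, with 2 low.

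**Figure D2:**
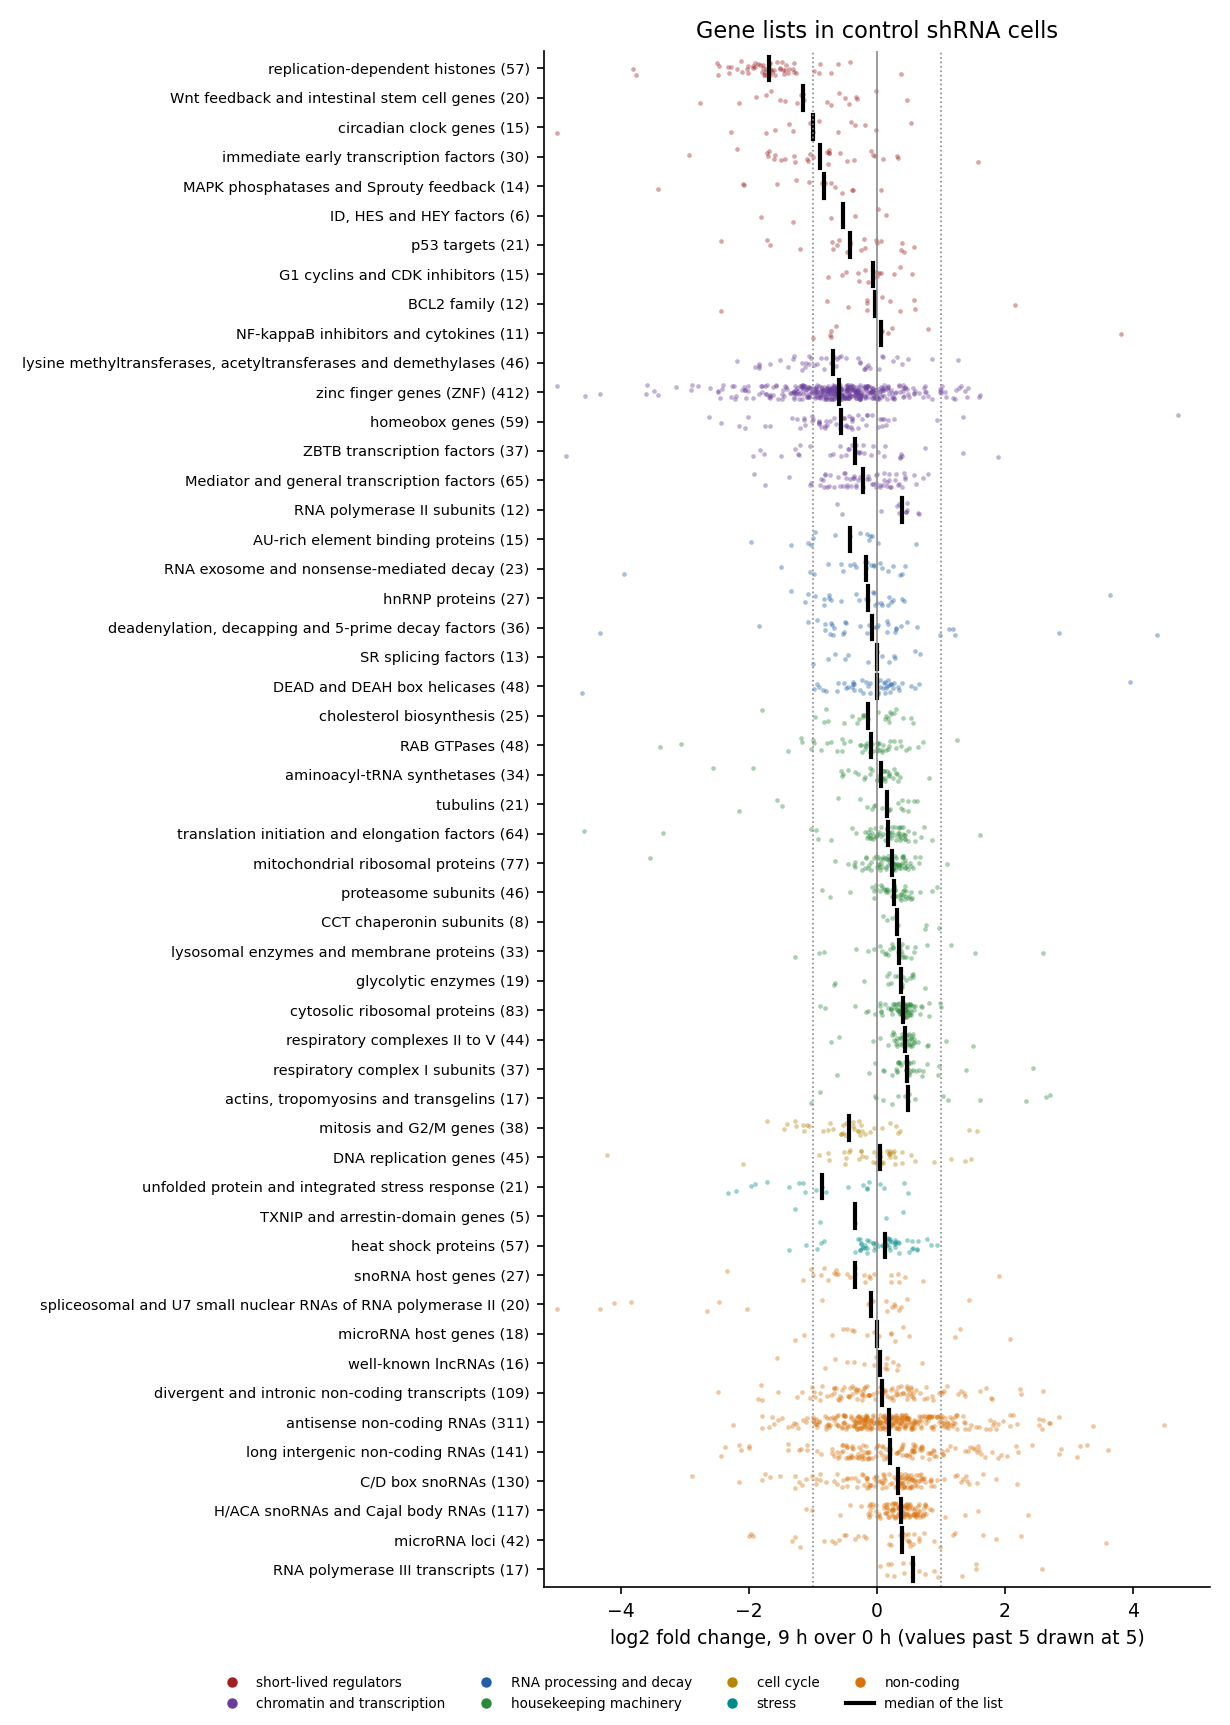
Control log2 fold change of 9 h over 0 h for every listed member (points, coloured by role) of each gene list, with the number of members in parentheses and a bar at the list's median; values past 5 are drawn at 5 and dotted lines mark −1 and 1. Histones lie lowest at a median of −1.69, ribosomal and respiratory lists are narrow and above 0, and many lists hold single members far from their median.

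The lowest and highest coding genes were read only where the table for the RBMS1 shRNA, made from other libraries, gave a value within 1 of the control value. FOXA2, a pioneer factor of gut and liver, was lowest at −7.91 (−8.58 in the other table) in the authors' deposited tables, which is 0.416% of its 0 h level. Next came BCKDHA, a subunit of the branched-chain keto acid dehydrogenase, at −4.49, ZNF700 at −4.33, the aminopeptidase LNPEP at −4.31 and the Rap regulator RAP1GAP2 at −4.23 in the authors' deposited table. The Hsp70 cochaperone ST13 at −3.98, H1-3, SPRY1, the APC/C activator FZR1 at −3.37 and TEX19 at −3.18 followed in the authors' deposited table. LYPD5 at −3.05, KLF2, ZNF784 at −2.90, the prostaglandin dehydrogenase HPGD at −2.85 and the neurotrophin BDNF at −2.84 closed these 15 in the authors' deposited table. For BCKDHA, ZNF700, LNPEP, RAP1GAP2, ST13, LYPD5 and HPGD the mean was set by 1 transcript. LNPEP had transcripts at −8.45 and −0.18 and RAP1GAP2 at −8.21 and −0.24 in the authors' deposited table, and BCKDHA, ZNF700, ST13 and HPGD are given further on. The lower LNPEP transcript was at −7.29 in the other table, more than 1 away, so LNPEP was repeated within 1 only as a mean. The 2 transcripts of LYPD5 were at −7.34 and 1.24 in the control and at 0.45 and −8.39, in the opposite order, in the other of the authors' deposited tables, so that only their mean was repeated.

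At the other end, MPP3, a membrane-associated guanylate kinase, was at 9.31 (9.07 in the other table) in the authors' deposited tables. XPNPEP1, an aminopeptidase, averaged 5.02, the kynurenine pathway enzyme AFMID 4.79 and DCP2 4.37 over 2 transcripts each in the authors' deposited table. Genes with a single listed transcript were PAGE2B at 3.42, the guanylate cyclase activator GUCA1B at 3.19, the secretoglobin SCGB2A1 at 3.12, TAGLN at 2.70 and the cytokine IL19 at 2.49 in the authors' deposited table. PAGE2B has near-identical copies, which makes its value uncertain. The endothelin-converting enzyme ECE1 at 3.41, FCHO2 at 3.17, PARP3 at 2.97, PARN at 2.84, EXTL2 at 2.58 and the retinol dehydrogenase RDH5 at 2.57 were means over several transcripts of the authors' deposited table. In these 6 genes and in XPNPEP1, AFMID and DCP2 the mean was set by 1 transcript at 5.88 or above, with the other coding transcripts between −1.91 and 0.84 in the authors' deposited table. For XPNPEP1 that transcript was at 9.94 in the control and 8.53 in the other table, and for PARN at 8.91 and 6.24. These genes were thus repeated within 1 only as means. Values above 0 state a higher share of the library at 9 h and do not show that a transcript was made.

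Values were then read against the structure of the transcripts in GENCODE release 29. Longer coding sequences went with lower values. In 5 bins of equal size from the shortest coding length (75 to 729 bases) to the longest (2436 to 21243 bases), the medians were 0.16, 0.03, −0.10, −0.17 and −0.30, and the share at −1 or below went from 8.42% to 13.8%. Across the 11514 genes with a model Spearman's rho was −0.24, given as a description since genes share the libraries. Leaving out the ribosomal, respiratory, proteasome, ZNF and histone genes gave medians of 0.13, 0.02, −0.09, −0.14 and −0.30. In the table for the RBMS1 shRNA the medians ran from 0.11 in the shortest bin to −0.19 in the longest. Longer 3′UTRs went the same way, with medians of 0.14, −0.03, −0.13, −0.18 and −0.21 from up to 346 bases to 2794 bases and more, and a rho of −0.18 over 11426 genes.

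Genes with few exons held the largest share of low values. Of 264 genes of 1 exon 92 (34.8%) lay at −1 or below, around a median of −0.64. Without the histones, 43 of 209 such genes were low and the median was −0.48. The median was −0.39 for 489 genes of 2 exons, −0.11 for 681 genes of 3 exons, 0.01 for 3333 genes of 4 to 7 exons and −0.10 for 6747 genes of 8 exons or more. In control cells base composition separated the genes little. The 5 bins of GC content had medians between −0.12 and −0.04 with a rho of 0.04. Those of GC at the third codon position lay between −0.16 and −0.05, and those of 3′UTR GC between −0.12 and 0.01. In the table for the RBMS1 shRNA the medians ran from −0.17 in the lowest GC bin to 0.04 in the highest. Over the bins of 3′UTR GC they ran from −0.15 to 0.06 there.

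**Figure D3:**
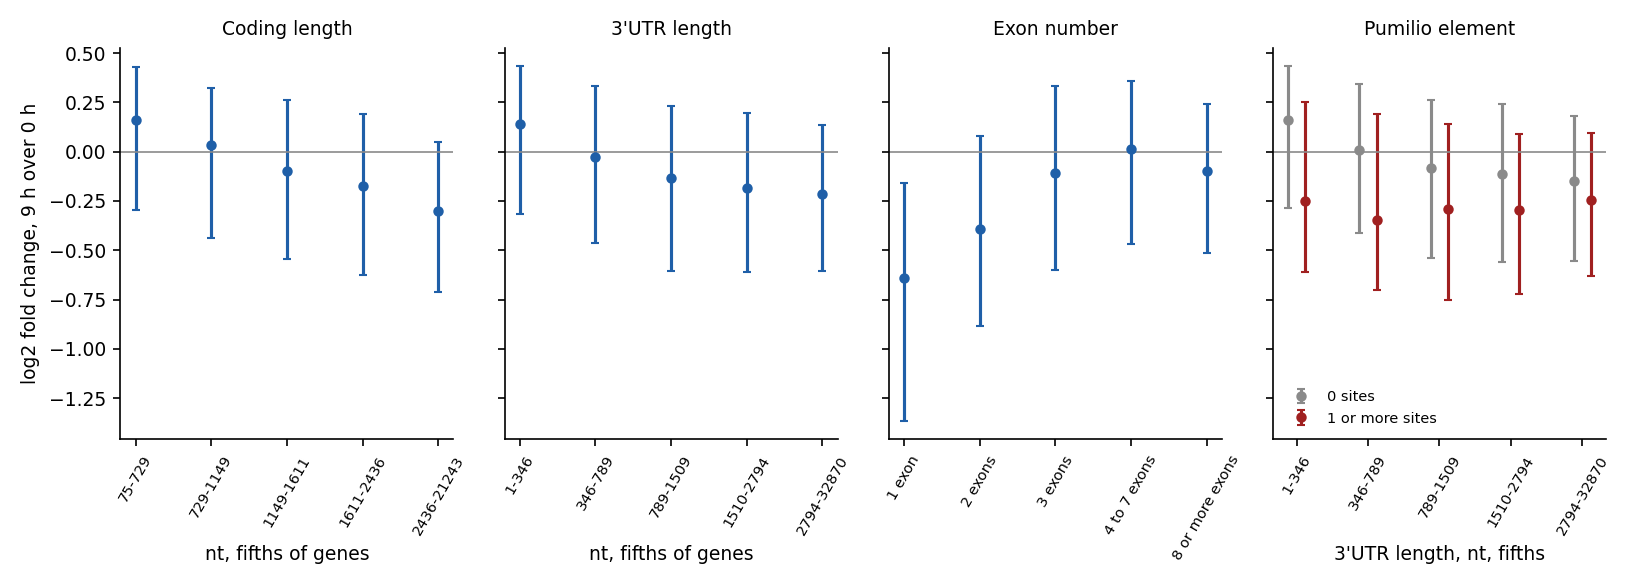
Median (point) and quartiles (bar) of the control log2 fold change of genes in 5 bins of coding length and of 3′UTR length in nt, by exon number, and by 3′UTR length for genes with and without a Pumilio element. The medians go from 0.16 to −0.30 with coding length, genes of 1 exon lie lowest at −0.64, and genes with an element lie below those without in every length bin.

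Of the sequence elements known in unstable mRNAs 2 were counted in the longest 3′UTR of each gene, on the transcript strand. The Pumilio element TGTANATA stood in 3108 of 11426 3′UTRs (27.2%), and the AU-rich nonamer TTATTTATT in 953 (8.34%). Sites of short-lived regulators with low values are shown 5′ to 3′ on GRCh38 with the element in capitals. Beside them are sites of CRY1 and POLR2D, which lay above 0 but below 1, and of the Wnt list's RGMB, which has 4 sites. Each is the site nearest to the stop codon.
KLF2, Pumilio element (chr19:16327383-16327412, plus strand): ttttataatatTGTATATAgtgactgacaa
DUSP6, Pumilio element (chr12:89348741-89348770, minus strand): catttgattatTGTAAATAtttgatcttga
AXIN2, Pumilio element (chr17:65528880-65528909, minus strand): tactatacatcTGTATATAgtgtacggcaa
ID2, Pumilio element (chr2:8684108-8684137, plus strand): actgaatgctgTGTATATAtttatatataa
JUN, Pumilio element (chr1:58781541-58781570, minus strand): ttaactgtgtaTGTACATAtatatattttt
CRY1, Pumilio element (chr12:106991800-106991829, minus strand): aattggtaattTGTATATAaagaacttggc
RGMB, Pumilio element (chr5:98793834-98793863, plus strand): aagagtatataTGTATATAccatgtatatg
FOS, AU-rich nonamer (chr14:75282060-75282088, plus strand): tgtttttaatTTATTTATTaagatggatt
GDF15, AU-rich nonamer (chr19:18389054-18389082, plus strand): tataagtctgTTATTTATTattaatttat
SRSF3, AU-rich nonamer (chr6:36603561-36603589, plus strand): cctaaacaaaTTATTTATTtccacctttt
POLR2D, AU-rich nonamer (chr2:127846250-127846278, minus strand): attcttatttTTATTTATTtatttatttt

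Genes with a Pumilio element lay lower than genes without. The median was −0.01 over 8318 genes without a site, −0.24 over 2015 genes with 1 site and −0.33 over 1093 genes with 2 or more. At −1 or below were 13.6% of the genes with a site and 9.74% of those without. Since genes with a site have longer 3′UTRs, the comparison was repeated within the 5 bins of 3′UTR length. From the shortest to the longest bin the medians without and with a site were 0.16 and −0.25, 0.01 and −0.35, −0.08 and −0.29, −0.11 and −0.29, and −0.15 and −0.25. Genes with a site were thus lower in each of the 5 length bins, and also in each of the 5 bins of coding length and of 3′UTR GC content. In the table for the RBMS1 shRNA the medians were −0.01 without and −0.24 with a site.

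Single genes with the element were not all low. With 2 sites each, KLF2 was at −2.93 and DUSP6 at −2.08, and CRY1 at 0.53, in the authors' deposited table. With 4 sites, RGMB was at −0.31 in the authors' deposited table. The AU-rich nonamer went with a smaller difference, a median of −0.24 against −0.07 without it. Within the bins of 3′UTR length the medians without and with the nonamer were 0.14 and −0.07, −0.02 and −0.08, −0.13 and −0.31, −0.18 and −0.25, and −0.20 and −0.25. FOS, GDF15 and SRSF3, with 1 nonamer each, were at −1.61, −1.67 and −1.01 in the authors' deposited table, and POLR2D, with 3, at 0.06. A match of these letters is a description and not a binding site, and whether RBMS1 or another protein acts through them was not tested.

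Among the non-coding genes, the classes lay at different levels. The 759 long non-coding RNAs had a median of 0.15, with 56 at −1 or below and 126 at 1 or above, and the 207 transcribed pseudogenes a median of 0.03. Whether the counting used the strand is not given in the sources used here, so a non-coding RNA that overlaps another gene cannot be told apart from it. The 311 antisense RNAs had a median of 0.18 with 51 at 1 or above and 17 at −1 or below, against backgrounds of 13.4% and 7.66%. The 141 LINC genes had a median of 0.20 with 29 and 12, and the 109 divergent and intronic transcripts a median of 0.07 with 15 and 9. RTCA-AS1 was highest at 4.49 over 2 transcripts (4.90 in the other table), and MCM3AP-AS1 was at −1.79 (−2.28) in the authors' deposited tables. LINC01619 was at −2.37 (−1.73), whereas LINC02563 was at 3.61 in the control and −0.04 in the other of the authors' deposited tables. Of 16 well-known long non-coding RNAs only HOTAIR lay past a size of 1, at −1.56 (−0.93) over 2 transcripts of the authors' deposited tables. The telomerase RNA TERC was at 0.33 and FTX, from the X inactivation centre, at 0.70 in the authors' deposited table.

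Of all 1370 non-coding genes 545 (39.8%) lay below 0, which is the background for the small RNAs. The 117 H/ACA and Cajal body RNAs, which guide pseudouridylation and snRNA modification, had a median of 0.38 with 101 above 0 and 16 below. The 130 C/D box snoRNAs, guides of ribose methylation, had a median of 0.34 with 84 above 0 and 46 below, nearer to that background. Of these C/D snoRNAs 12 (9.23%) lay at −1 or below and 12 at 1 or above, against backgrounds of 7.66% and 13.4%. Of the 11 low C/D snoRNAs listed in the other table, 1 was at −1 or below there. SNORD43 was at 2.18 (2.97) and SNORD12C at −2.15 (1.97) in the authors' deposited tables. Reads of short RNAs inside introns may belong to their host genes. The 27 snoRNA host genes, whose spliced RNAs are known targets of nonsense-mediated decay, had a median of −0.35 with 20 below 0. SNHG3 averaged −2.34 over transcripts at −4.57 and −0.11 in the control, against −2.39 and −0.51 in the other of the authors' deposited tables. EPB41L4A-AS1 was at −1.15 and SNHG12 at −1.03 in the authors' deposited table. As gene values the 3 were at −1 or below in the other table as well.

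Transcripts of RNA polymerase III, which is less sensitive to the toxin, had a median of 0.56, and all 17 lay above 0. The Y RNAs RNY4 and RNY5 were at 1.55 and 1.54, and SNAR-G2, from a family of near-identical copies, at 2.57 in the authors' deposited table. The RNase MRP RNA RMRP was at 0.16 and the vault RNA VTRNA1-1 at 0.05 in the authors' deposited table. MicroRNA loci had a median of 0.39 over 42 with 6 past a size of 1 on each side, but of 0.01 over the 24 loci that the other table also lists. Their values can stand for precursors or overlapping host RNA, since libraries of this kind are not made to hold mature microRNAs. MIR17HG, the host of the miR-17-92 cluster, was at −1.14 (−1.09) and MIRLET7BHG at −1.28 (−2.04) in the authors' deposited tables.

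The small nuclear RNAs of RNA polymerase II divided into the U1 variants and the rest. Of the 20 listed, 7 lay at −1 or below, and all 7 were among the 10 listed RNVU1 genes, which encode variants of U1, the snRNA that pairs with the 5′ splice site. The others were near the middle, such as RNU5E-1 at 0.37 and RNU5D-1 at 0.46 in the authors' deposited table. Of the 7 low variants 6 were listed in the other table, and all 6 lay at −1 or below there. The first 24 bases are shown because they hold the part that pairs with the splice site, with capitals where a base differs from RNU1-1 at the same position.
RNU1-1 (chr1:16514262-16514285, minus strand): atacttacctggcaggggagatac
RNVU1-7 (chr1:148038893-148038916, minus strand): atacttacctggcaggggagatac
RNVU1-1 (chr1:148362510-148362533, minus strand): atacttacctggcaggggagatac
RNVU1-19 (chr1:120850962-120850985, minus strand): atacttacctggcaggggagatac
RNVU1-17 (chr1:143699596-143699619, minus strand): aCacttacctggcaggggagataG
RNVU1-6 (chr1:146052221-146052244, minus strand): atacttacctggcaggAgagatac
RNVU1-14 (chr1:145281116-145281139, plus strand): atacttacctggAaggggagatac
RNVU1-15 (chr1:144412576-144412599, plus strand): atacttacTtggcGggggagatac
RNVU1-4 (chr1:120942600-120942623, plus strand): atGTttaTctggcagAAgaAatGT
RNVU1-3 (chr1:148402715-148402738, plus strand): ataTttaTctggcagAAgaAatGT

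The variants closest to RNU1-1 had values nearer to 0 than most others. Differences were counted over the whole length as substitutions, insertions and deletions. RNVU1-7, with 1 difference, was at −0.11 and RNVU1-1, with 6, at −0.86 in the authors' deposited table. RNVU1-19 with 13 differences was at −2.47, RNVU1-14 with 15 at −2.04, RNVU1-6 with 15 at −4.11 and RNVU1-15 with 18 at −2.65 in the authors' deposited table. RNVU1-3 with 26 and RNVU1-4 with 33 were at −4.33 and −3.84 in the authors' deposited table. RNVU1-17, with 11 differences, went the other way at 1.43, and RNVU1-8, for which no sequence was matched, was lowest at −5.61 in the authors' deposited table. The first 24 bases did not order the values, since RNVU1-7, RNVU1-1 and RNVU1-19 share those of RNU1-1 and RNVU1-17 differs from it at 2 of them. Copies this alike cannot be separated with certainty by short reads, and RNVU1-7 was at 1.04 in the other of the authors' deposited tables.

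Non-coding genes repeated within 1 in the other table were led at the low end by the histone pseudogene H2BP1 at −3.20, RNVU1-15 and RNVU1-19 in the authors' deposited table. LINC01619, SNHG3, RNVU1-14, LOC100630923 at −2.01, MIR4787 at −2.01, SPRY4-IT1 at −1.86 and MCM3AP-AS1 completed these 10 in the authors' deposited table. SNHG3 was repeated within 1 only as a mean, since its low transcript was at −4.57 in the control and −2.39 in the other table. SPRY4-IT1 lies within an intron of SPRY4, a member of the Sprouty family named earlier. At the high end stood RTCA-AS1, LASP1NB at 3.02, DNMBP-AS1 at 2.71, LOC100652758 at 2.70 and CSE1L-DT at 2.24 in the authors' deposited table. C2orf92 at 2.23, CASC9 at 2.19, SNORD43, SLC9A9-AS1 at 2.08 and ZFP91-CNTF, a readthrough transcript, at 2.08 came after them in the authors' deposited table.

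Transcripts of the same gene often differed. Of 4506 genes with several listed coding transcripts 2342 (52.0%) had a range of 1 or more between the lowest and the highest, the median range was 1.06 (quartiles 0.43 and 2.13) and 400 genes had transcripts both at −1 or below and at 1 or above. How Cuffdiff or another tool assigned reads to transcripts that share exons is not given, so these values depend on that assignment. For 1656 of the 2342 genes both ends were in the table for the RBMS1 shRNA. There 1036 (62.6%) kept the order of the 2 transcripts and 636 (38.4%) again had a range of 1 or more in that order. Unrelated values would keep the order of 2 transcripts about as often as they reverse it.

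The widest ranges that were repeated within 1 at both ends lay in 10 genes. FCHO2, an endocytic adaptor, had transcripts at −1.68 and 8.02 (−1.30 and 7.60 in the other table), and DCP2 at −0.41 and 9.15 (−0.65 and 9.28), in the authors' deposited tables. BCKDHA had transcripts at −9.26 and 0.29, and ADAR, the RNA editing enzyme, ran from −7.90 to 1.44 over 4 transcripts in the authors' deposited table. In ZNF700, ST13 and HPGD 1 transcript lay at −8.28 or below and another between 0.04 and 0.40 in the authors' deposited table. ARMC9, ECE1 and AFMID had a transcript at 8.23 or above beside one at −1.24, 0.14 and 0.25 in the authors' deposited table. Apart from FCHO2, ARMC9 and ADAR, these genes had 1 end of the range within 1 of 0 and the other far from it.

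The lowest and the highest transcript of a gene were compared by their features. Among the 2342 genes with a range of 1 or more, the lowest transcript had the longer 3′UTR in 823 and the shorter in 841. It had the longer coding sequence in 806 and the shorter in 836, and more exons in 613 and fewer in 686. It held more Pumilio elements than the highest in 162 genes and fewer in 126. Over the 636 genes of repeated order the lowest transcript had the longer 3′UTR in 211 and the shorter in 233, and the longer coding sequence in 201 and the shorter in 230. In these genes it had more exons in 154 and fewer in 207, and more Pumilio elements in 52 and fewer in 32.

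**Figure D4:**
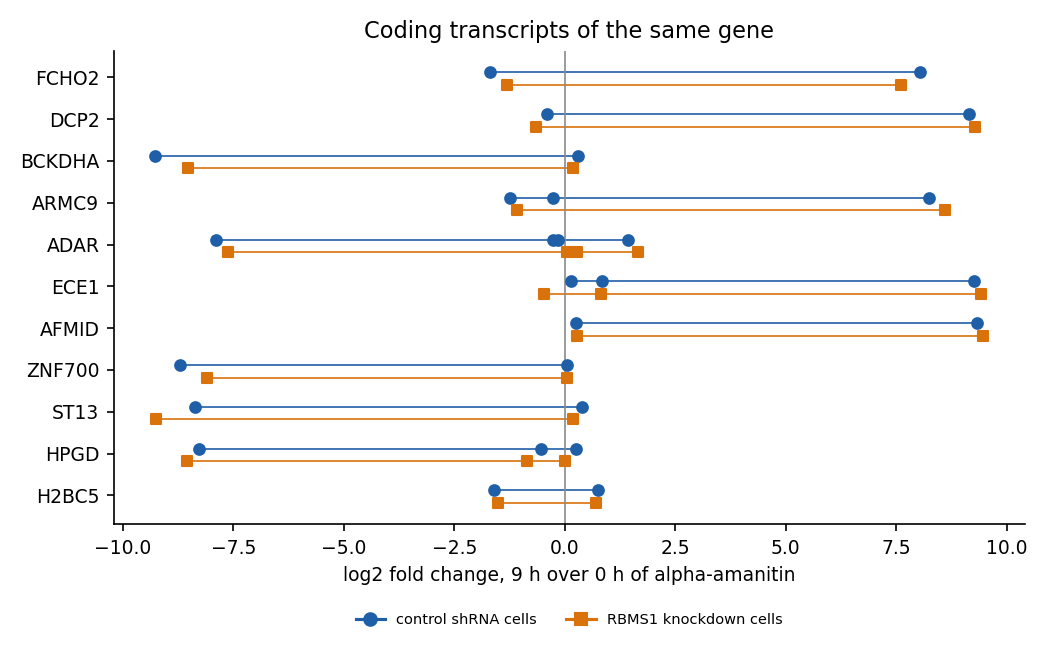
Log2 fold change of 9 h over 0 h of every coding transcript (points joined by a line) of the 10 genes with the widest repeated range and of H2BC5, in control (circles) and RBMS1 shRNA cells (squares). Each transcript at an end of the control range lies within 1 of that value in the other cells, as for FCHO2 at −1.68 and 8.02 against −1.30 and 7.60.

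Non-coding transcripts of coding genes, many of them splice forms without the full reading frame, were compared with the coding ones of the same gene. Over 703 genes the non-coding minus coding difference had a median of −0.02 (quartiles −0.92 and 0.93), with 163 genes at −1 or below and 171 at 1 or above, so there was no common direction. Of the 163, 133 were in both tables and 52 of those were at −1 or below again. Of the 171, 132 were in both tables and 49 were at 1 or above again. The share past 1 among all 593 genes of both tables was not computed, so these counts have no background. In MCM2, which is part of the replicative helicase, the non-coding form was at −9.48 (−8.82) and the coding form at 0.16 (0.20) in the authors' deposited tables. PDHB, a subunit of pyruvate dehydrogenase, had its non-coding form at −3.65 and its coding forms at 0.30, and the methyltransferase NTMT1 at −3.06 and 0.11, in the authors' deposited table. For MPP3 the non-coding form was at −1.23 against 9.31 for the coding form in the authors' deposited table. The opposite order was seen in ANKRD13D, at 2.23 (1.45) for the non-coding and −1.41 (−1.23) for the coding form, and in ZNF273 at 0.09 and −2.22, of the authors' deposited tables. The deubiquitinase USP3, with 0.31 and −1.85, and the mitochondrial synthase OXSM, with 0.27 and −1.69, shared that order in the authors' deposited table.

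How far a value was repeated in the RBMS1 shRNA cells varied with its size and kind. This is a comparison of different cells, so a difference may be the knockdown or the measurement, which cannot be told apart. Over 17238 coding transcripts in both tables the median absolute difference was 0.26 and 83.0% lay within 1, with a Pearson's r of 0.27 and a Spearman's rho of 0.53. Over 2096 non-coding transcripts the median difference was 0.41, 77.2% lay within 1, and r and rho were 0.38 and 0.47. Of the 2137 coding transcripts at −1 or below and listed in both, 1013 (47.4%) were at −1 or below again, which is 48.0% of the 2109 low ones of the other table. Of the 1036 at 1 or above, 344 (33.2%) were there again, 31.2% of the 1102 of the other table. For non-coding transcripts the shares of the control's calls were 40.5% of 227 at −1 or below and 43.3% of 245 at 1 or above. The background is the other table's values over all shared transcripts. Of the 17238 coding ones 2109 were at −1 or below there and 1102 at 1 or above, and of the 2096 non-coding ones 242 and 276.

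The most extreme values were often missing from the other table or lay far from the control value there. Of 230 coding transcripts at −5 or below, 45.2% were not listed in the other table, and the 126 that were had a median of −0.56 there, with 52 at −1 or below and 28 at 1 or above. Transcripts between −2 and −1 had a median of −0.92 there, and those between −3 and −2 a median of −1.19. On the other side, 87 of 140 transcripts at 5 or above were listed in the other table, with a median of 0.38, 32 at 1 or above and 19 at −1 or below. Values between −1 and 0 were missing from the other table in 5.14% of cases.

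**Figure D5:**
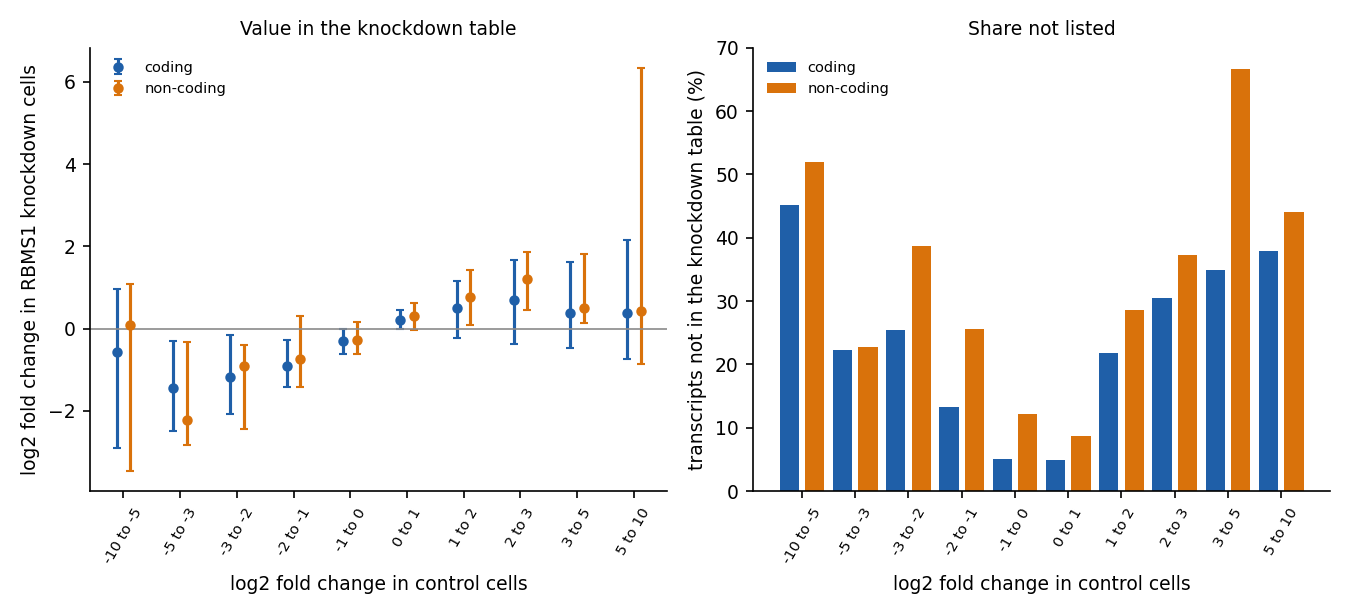
Left, median (point) and quartiles (bar) of the log2 fold change in RBMS1 shRNA cells for coding and non-coding transcripts grouped by their control value; right, the share (%) of each group not listed there. The coding medians go from −0.56 for control values of −5 or below through −1.45 between −5 and −3 to 0.38 at 5 or above.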

How the data were processed

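Total RNA libraries of the control shRNA cells at 0 h and 9 h of alpha-amanitin were used, 2 per group. The authors deposited, for each shRNA, a table whose columns are named RefSeq and logFC, per the file headers, and its values were read as log2 fold changes of 9 h over 0 h. The submitters' processing notes name STAR 2.5, Cufflinks, Cuffdiff and hg38 but not what each did. How the libraries were normalized, their depth and their spread are unknown, so no interval or test was computed.

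Symbols were found for 22129 of 22468 accessions through the RefSeq gene table and for 215 through GENCODE release 29, and 124 had none. Transcript structures were found for 18342 of 18822 coding transcripts in GENCODE release 29 (GRCh38, the assembly of hg38). Values were averaged per gene over the coding transcripts or, without any, over the non-coding ones. Computations used Python 3.11.15, pandas 2.3.3, numpy 2.4.6 and matplotlib 3.10.9, and were tested on simulated data.

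The members and gene lists were chosen with earlier results of these data known. Genes named are the 8 fixed anchors, the 3 lowest and 3 highest members of each list, the 15 lowest and 15 highest coding and 10 and 10 non-coding genes repeated within 1 in the other table, the 10 widest repeated ranges among transcripts, and the 8 lowest and 8 highest non-coding minus coding differences. The genes whose sequences are shown, and histones and U1 variants given beside them, were chosen after their values were seen. Some genes and sequences that these rules select are not reported here. Alternatives changed how transcripts were summed per gene, which transcripts entered and the point taken as 0.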

Additional observations from a re-analysis of the deposited data

How the results depend on the processing

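The results were recomputed with the median over transcripts, with the transcript of smallest change, with genes of 1 listed transcript only, without the outer 1% of values, with ribosomal protein mRNAs set to 0, and with only the transcripts of both tables; for the ranges among transcripts, leaving out the outer 1% and keeping only shared transcripts were chosen after seeing the data. No paired analysis was possible because the tables hold no value per library, and for the same reason no library could be left out. Medians were held to be unmoved within 0.5 times the spread between the quartiles of their members, differences between bins within 0.1 and counts within 1.5 times. Of 377 alternative values for 70 results 328 stayed within this rule and 49 moved. The 377 include, for a few results, pooled coding and non-coding transcripts, the coding median set to 0 and each table centred on its median. Some of the 328 could not move. All 130 C/D snoRNAs had 1 listed transcript, so settings that act within a gene's transcripts returned their median of 0.34 by construction. The same held for the 117 H/ACA RNAs. The coding median set to 0 was 0 by construction and was counted as unmoved. The rule does not count the sign of a median near 0. Beside the ribosomal setting, the sign changed for 7 lists: NF-κB, the BCL2 family (up to 0.14), the G1 list, SR proteins (−0.14), DEAD and DEAH helicases (down to −0.11), cholesterol synthesis (up to 0.14) and the TXNIP and arrestin-domain genes (0.14).

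The transcript of smallest change gave 246 coding genes at 1 or above and medians of −0.65 for the NF-κB list and 0.12 for the G1 list. Genes with 1 listed transcript gave 723 coding genes at −1 or below and 162 at 1 or above. Over such genes the medians were −0.68 for the NF-κB list, −0.79 for 4 hnRNP genes and −0.21 for the stress response, and the bins of exon number differed by 0.10. Only transcripts of both tables left 66 non-coding genes at −1 or below and 121 at 1 or above.

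With ribosomal protein mRNAs at 0 the coding median was −0.50, with 2709 coding genes at −1 or below and 257 at 1 or above, and 210 and 111 non-coding genes. The list medians were then −2.10 for histones, −0.45 for the BCL2 family, −0.48 for the G1 list, −0.83 for p53 targets, −1.0 for ZNF and −0.98 for homeobox genes. Mediator and the general factors lay at −0.63, polymerase II subunits at −0.015, SR proteins at −0.41, exosome and nonsense-mediated decay at −0.58 and DEAD and DEAH helicases at −0.41. Cytosolic ribosomal proteins lay at 0.00 by construction, mitochondrial ones at −0.18, complex I at 0.060, complexes II to V at 0.03, the proteasome at −0.14, the CCT chaperonin at −0.10 and glycolysis at −0.036. Translation factors lay at −0.24, aminoacyl-tRNA synthetases at −0.35, tubulins at −0.26, cholesterol synthesis at −0.55, lysosomal proteins at −0.070 and RAB GTPases at −0.51. Mitosis genes lay at −0.85, DNA replication at −0.37, heat shock proteins at −0.28, snoRNA hosts at −0.76, C/D snoRNAs at −0.077, H/ACA RNAs at −0.034, polymerase III transcripts at 0.14, microRNA hosts at −0.42 and well-known long non-coding RNAs at −0.36. Where another setting moved a value the cause was not tested. Depth is unknown, so transcripts with few reads could not be set apart.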
